A study of Rattus norvegicus with 300 samples.

Results

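Plagl1, Igf2, Cdkn1c, Peg3, Ndn, Mest, Grb10, Dlk1 and Meg3 are imprinted genes with known parts in growth, and they were followed here across the rat brain under antidepressants and probiotics. They are 9 of the 17337 gene symbols in the deposited count table. Each of the 9 has a row there, Meg3 under its older symbol RGD1566401. The set was selected on measured values, namely that Plagl1 was higher in FT over all regions and Igf2 was higher in Raphe of FT, and the question here was which other imprinted genes differ with them. Since those values chose the set, Plagl1 and Igf2 are only described in FT against Control, and tests in that comparison cover the other 7 genes.

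RNA was sequenced from pooled tissue punches of male Long Evans rats, aged 60 days, after 3 weeks of treatment in the drinking water. The study has a pair of control groups: Control received plain water, and Maltodextrin received 10 g/L of the sugar that carries the probiotic. The daily dose was 13 mg/kg in the FT group, while Bupropion rats got 15 mg/kg and Desipramine rats 7.5 mg/kg. For Probiotics the labels disagree on the dose. The labels do not spell out FT; among the drugs of their protocol, fluoxetine, a serotonin uptake inhibitor, is left without a group of its own name. Bupropion and desipramine are antidepressants that block uptake of dopamine or noradrenaline. The labels abbreviate the 10 regions, and these names are kept: mPOA, Raphe and LConly, then BLA and NACShell, the DG pair dorDG and venDG, and CGC, ILC and PLC. With 6 treatments this gives 60 groups of 5 libraries, 300 in all. The labels name no genetic modification. Punches were pooled, and how many rats a pool holds is not given in the sources. The p-values therefore rest on the spread among libraries, which may be technical. The labels name no batch, so a batch that followed treatment and the treatment itself cannot be told apart.

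Imprinted genes are transcribed mainly from the allele inherited from a single parent, and many of them speed up or restrain growth before and after birth. Plagl1 encodes a zinc finger transcription factor that halts the cell cycle and is described as a regulator within a network of imprinted genes that includes Igf2, Cdkn1c, Dlk1 and Meg3. In the adult brain Igf2, a growth factor, is known chiefly from meninges, choroid plexus and vessels, while Peg3, Ndn, Dlk1 and Grb10 are known from neurons, with high levels in the hypothalamus and monoamine nuclei.

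Because the set was assembled around a transcription factor, the promoters of Plagl1, of Igf2 and of Peg3, the last being the only member whose window held the motif searched, are shown. RefSeq (build GRCr8, not the rn6 build of the counts) gave windows from 250 bases before to 50 bases after the start for 8 of the 9 genes, in 9 windows. Igf2 had 2 windows, and Cdkn1c had none. The motif searched was GGGGCCCC, a core described for Plagl1, which reads the same on both strands; no other motif was searched. It was found in 1 of the 9 windows against 0.858% of the 33469 windows of the table, and capitals mark it, with its first base 213 bases before the start of Peg3. The windows lie at chr1:9297214-9297513 on the plus strand (Plagl1), chr1:207253931-207254230 and chr1:207250426-207250725 on the minus strand (Igf2, the upstream and the downstream start) and chr1:76130744-76131043 on the plus strand (Peg3), each printed 5′ to 3′ along its gene.
Plagl1: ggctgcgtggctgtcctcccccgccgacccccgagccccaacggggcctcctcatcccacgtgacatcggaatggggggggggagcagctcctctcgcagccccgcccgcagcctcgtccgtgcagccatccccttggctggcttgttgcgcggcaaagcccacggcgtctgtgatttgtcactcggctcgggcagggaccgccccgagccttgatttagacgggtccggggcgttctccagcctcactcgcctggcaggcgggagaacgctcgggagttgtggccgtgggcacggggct
Igf2, upstream start: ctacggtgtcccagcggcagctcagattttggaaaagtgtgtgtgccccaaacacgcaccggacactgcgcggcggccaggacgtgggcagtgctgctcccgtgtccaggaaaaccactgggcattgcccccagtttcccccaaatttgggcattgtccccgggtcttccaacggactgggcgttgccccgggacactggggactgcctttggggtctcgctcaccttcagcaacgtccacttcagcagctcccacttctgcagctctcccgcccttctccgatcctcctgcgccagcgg
Igf2, downstream start: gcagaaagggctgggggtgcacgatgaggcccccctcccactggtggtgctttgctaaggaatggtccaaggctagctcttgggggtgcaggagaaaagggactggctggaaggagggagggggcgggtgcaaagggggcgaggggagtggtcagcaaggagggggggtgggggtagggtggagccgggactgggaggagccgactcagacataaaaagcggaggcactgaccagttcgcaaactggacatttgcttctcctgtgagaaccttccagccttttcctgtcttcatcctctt
Peg3: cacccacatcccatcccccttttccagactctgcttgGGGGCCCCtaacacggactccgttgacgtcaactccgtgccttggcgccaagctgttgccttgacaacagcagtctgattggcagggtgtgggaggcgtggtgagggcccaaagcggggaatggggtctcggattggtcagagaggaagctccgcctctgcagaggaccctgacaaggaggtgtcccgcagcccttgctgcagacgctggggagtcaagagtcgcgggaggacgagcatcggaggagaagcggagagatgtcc
These windows are rich in G and C: 70.7% of the Plagl1 window, 63.3% and 60.7% of the Igf2 windows and 62.3% of the Peg3 window, against a median of 51.7% over all windows. The Plagl1 window held 29 CpG pairs, the Igf2 windows 19 and 7, and the Peg3 window 16, against a median of 7. Grb10 (44 pairs) and Dlk1 (45 pairs) stood above them.

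Some libraries stand apart, and they bear on several values below. The FT libraries labelled ILC and LConly each carry the other label's markers: Dbh, the noradrenaline enzyme, averaged 255 CPM (counts per 1000000 counts of the library) in the former and 0.651 CPM in the latter, against 140 CPM in LConly of Control. Control libraries labelled ILC had 23.4 CPM of Slc17a7, a glutamate transporter of cortical neurons, against 274 CPM in Maltodextrin. Slc17a7 was also lower in dorDG of Probiotics than of Maltodextrin, with values given below. Ttr, the defining choroid plexus gene, was very high in FT, at 7956 CPM in BLA and at 5762 CPM in dorDG. In Desipramine, BLA replicate 3 had only 198260 counts and carried serotonin neuron markers, and 4 libraries, all of Desipramine, had under 1000000 counts; totals otherwise ran up to 18310687, with a median of 9232560. Replicate 1 of FT was sequenced least among the FT replicates, at 3511756 to 4807308 counts.

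In Control, most of these genes were highest in mPOA, a hypothalamic area. Plagl1 averaged 7.85 ± 1.39 CPM there (SD, n = 5), followed by venDG at 5.86 ± 1.1 CPM, and the libraries of these regions overlapped. LConly (2.79 CPM) and BLA (2.49 CPM) formed the next step, below venDG without overlap, and the other 6 regions lay between 0.286 and 0.964 CPM with neighbours overlapping. Peg3 stood highest in mPOA (1554 ± 118 CPM), then in LConly (1362 ± 85.9 CPM) and Raphe (1137 ± 116 CPM), and the remaining 7 regions lay between 355 and 677 CPM. Ndn separated mPOA (1911 ± 171 CPM) from ILC, the next region (702 ± 17.2 CPM), with no overlap. Dlk1 was the most uneven member: 71.8 ± 5.06 CPM in mPOA, 19.2 ± 1.52 CPM in Raphe and 10.6 ± 1.36 CPM in LConly, against 0.261 ± 0.127 CPM in ILC and 0.432 ± 0.36 CPM in dorDG, where too few counts were left for a test. Grb10 (104 ± 7.48 CPM), Mest (116 ± 6.19 CPM) and Cdkn1c (9.12 ± 0.609 CPM) also peaked in mPOA, each without overlap with the next region. Mest was lowest in dorDG (21.8 ± 2.61 CPM) and venDG (21.7 ± 2.78 CPM), which overlapped. Igf2 and Meg3 broke this order. Igf2 was highest in the Control libraries labelled ILC (162 ± 17.8 CPM), then in mPOA (96.2 ± 3.62 CPM), and lowest in BLA (9.91 ± 1.6 CPM), which overlapped with Raphe and dorDG. Meg3 was highest in BLA (578 ± 54.1 CPM) and CGC (560 ± 26.1 CPM), and lowest, without overlap, in the Control libraries labelled ILC (43 ± 2.86 CPM).

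Every member was called in at least 1 comparison over all regions. Any single comparison called 48.6% to 70.6% of all genes, and the share of all genes called in at least 1 of them was not computed. Genes with an adjusted p below 0.05 count as called, in edgeR's quasi-likelihood test (Benjamini-Hochberg over all genes tested), on counts summed over the 10 regions in each of 5 treatment replicates per group. In FT against Control 5 of the 7 tested members were called, where 61.9% of all genes were (25.5% higher and 36.4% lower): Cdkn1c, Dlk1, Grb10 and Peg3 rose, Ndn fell, and Mest (log2 change -0.12) and Meg3 (0.13) did not pass. In Bupropion against Control 8 of 9 were called (58.1% of all genes), 4 higher (22.2% of all genes) and 4 lower (35.9%). In Desipramine against Control 8 of 9 were called (70.6%), 5 higher (25.9%) and 3 lower (44.7%). Probiotics against Maltodextrin gave 6 of 9 (55.9%), 4 higher (33.8%) and 2 lower (22.1%). Maltodextrin against Control gave 7 of 9 (48.6%), 4 higher (17.5%) and 3 lower (31%). In Bupropion, Desipramine and Maltodextrin against Control, Plagl1 is among the genes counted higher and Igf2 among those counted lower. The Control levels of both took part in choosing the set, so these counts are not independent of that choice. The median log2 change of all genes was -0.06 in FT, -0.07 in Bupropion, -0.12 in Desipramine, 0.07 in Probiotics against Maltodextrin and -0.06 in Maltodextrin against Control. Scaled by library totals instead of TMM factors, that median was 0.13 in FT, 0.09 in Desipramine and 0.03 in Maltodextrin, and the share of called genes that were higher was 68.3%, 61.1% and 59.1% in place of 41.2%, 36.7% and 36.1%. Small changes of the members therefore depend on the scaling. Those over all regions that turned sign, and were called under either scaling, are given with both values below. The 3 drugs and Maltodextrin share the Control libraries, so their values are set side by side and not compared as independent results.

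**Figure D1:**
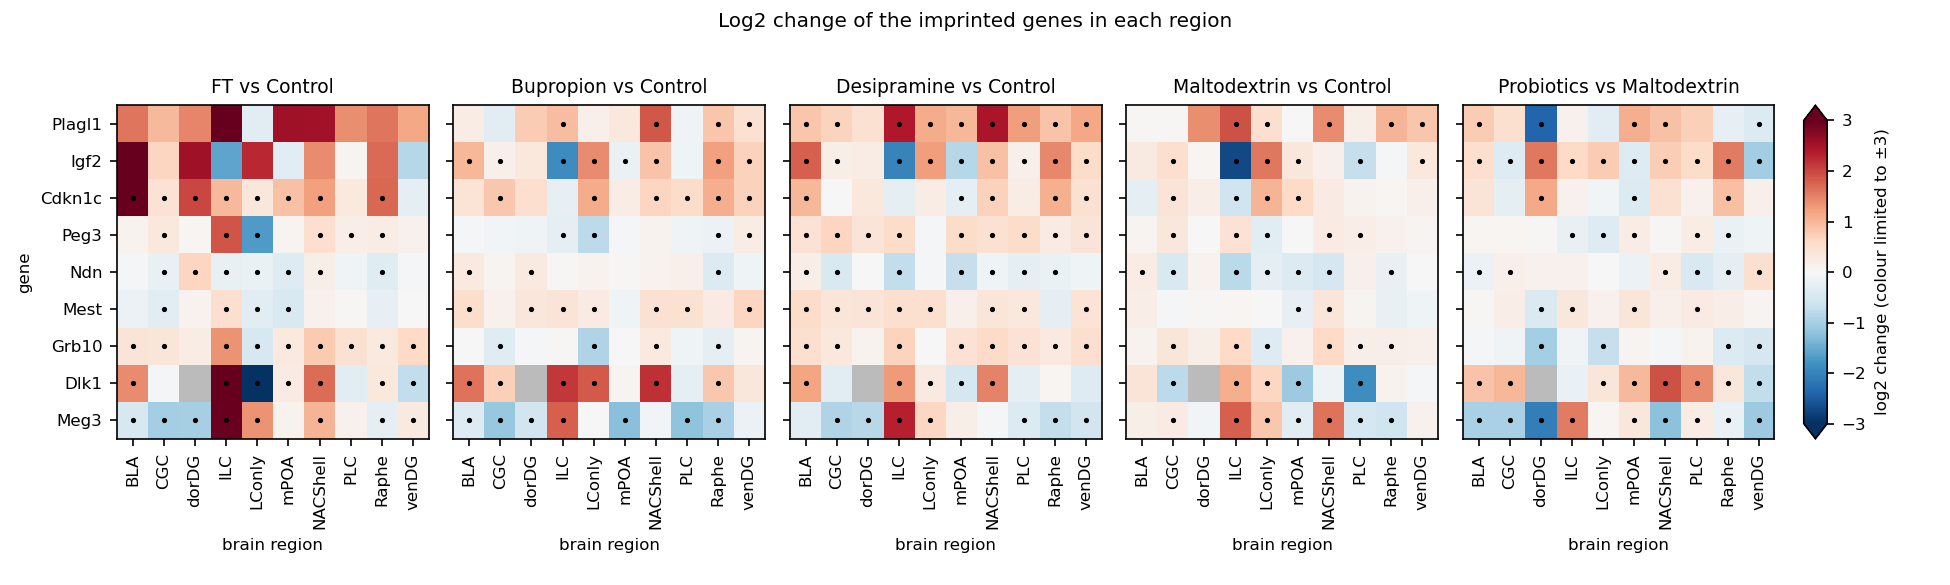
Log2 change of each gene (rows) in each brain region (columns) for the 5 comparisons, with the colour limited to ±3 and a dot where the adjusted p was under 0.05; grey marks Dlk1 in dorDG, which was not tested, and Plagl1 and Igf2 carry no dots in FT. The Plagl1 row is red in 9 of 10 regions of FT and in all 10 of Desipramine, while the Igf2 and Meg3 rows hold both colours in every comparison.

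Region by region, 49 of the 69 tested pairs of gene and region were called in FT, where 53.4% of all gene and region pairs were. The counts were 49 of 89 in Bupropion (46.3% of all pairs), 67 of 89 in Desipramine (54.3%), 54 of 89 in Probiotics against Maltodextrin (42.8%) and 47 of 89 in Maltodextrin against Control (37.9%). Those of Bupropion, Desipramine and Maltodextrin against Control again include Plagl1 and Igf2, and so are not independent of the choice of the set. The size of the change differed between regions for all 7 tested members in FT and for all 9 in each other comparison, by the test of 9 region-by-treatment terms in edgeR (adjusted p at most 0.000801, for n = 5 replicates in each of 20 groups), where 92.4% of all genes passed in FT, 90.3% in Bupropion, 87.1% in Desipramine, 82.1% in Probiotics and 89.6% in Maltodextrin. Most genes passed that test, which does not address direction and includes the libraries labelled ILC and LConly. Opposite changes show in the region calls of some members. Meg3 was called higher in 3 regions and lower in 6 in Probiotics, and Igf2 higher in 7 and lower in 2 in Desipramine. An average over regions hides this, and the regions are given below.

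Plagl1, the transcription factor, was far higher in FT. In mPOA its 5 Control libraries held 5.62, 8.83, 8.25, 7.46 and 9.06 CPM, and its 5 FT libraries held 50.4, 50.7, 55.5, 43.2 and 54.1 CPM. The groups did not overlap, and the fitted log2 difference was 2.54 (SE 0.11), a value given without a test. FT was also above Control without overlap in 7 other regions, and only the libraries labelled LConly, a label in doubt in FT, had a negative value (-0.33). The largest value, 5.34, belonged to the libraries labelled ILC, where FT held 12.4 to 17.9 CPM and Control 0.198 to 0.39 CPM, and where the label is in doubt. Over all regions the log2 difference was 2.02, from 2.14 ± 0.294 to 10 ± 0.408 CPM (SD, n = 5), and 1.95 without ILC and LConly.

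Plagl1 was higher in Desipramine as well. The Control levels of Plagl1 took part in choosing the set, so its tests in Desipramine, Bupropion and Maltodextrin against Control are not independent of that choice. In mPOA its libraries held 17.6, 18, 20.9, 18.9 and 17.7 CPM, all above Control, at a log2 change of 0.99 (SE 0.12, edgeR adjusted p = 2.35e-08, n = 5). In venDG, Control held 4.18 to 7.12 CPM and Desipramine 13.3 to 16.4 CPM, a rise of 1.16 (SE 0.12, adjusted p = 4.56e-10). Plagl1 was called higher in 9 of 10 regions of Desipramine, all but dorDG, and over all regions it rose by 1.17 (SE 0.066, adjusted p = 5.57e-15). Plagl1 had 0 counts in each of the 4 Desipramine libraries with under 1000000 counts, which allow up to 15.1 CPM in BLA replicate 3 and 3.57 to 5.25 CPM in the others (3 counts, counting error only).

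In Bupropion the rise of Plagl1 was smaller: 0.42 over all regions (SE 0.067, adjusted p = 3.84e-06), called in 4 of 10 regions and clearest in NACShell, where libraries of 1.52 to 3.72 CPM stood above Control at 0.334 to 0.741 CPM (log2 change 1.86, adjusted p = 5.55e-05). With the carrier sugar alone the gene rose by 0.52 (SE 0.068, adjusted p = 4.73e-07) over all regions, with 5 of 10 regions called, among them NACShell (1.41, adjusted p = 0.00558), where its libraries of 0.706 to 2.25 CPM overlapped with Control. With only Raphe, PLC, NACShell, mPOA and CGC counted, the Maltodextrin change was 0.19 and did not pass (adjusted p = 0.0893). Between Probiotics and Maltodextrin, Plagl1 differed in both directions. It rose in mPOA by 1.1 (SE 0.12, adjusted p = 1.49e-08), where 5 Maltodextrin libraries of 6.13 to 10.8 CPM faced Probiotics libraries of 17.2, 19.9, 19.3, 22.8 and 18 CPM, and it fell in dorDG by 2.38 (SE 0.37, adjusted p = 1.19e-06), where its counts were 9, 16, 6, 13 and 13 in Maltodextrin and 11, 3, 3, 2 and 1 in Probiotics. The Probiotics libraries of dorDG also differ in a defining neuron marker: Slc17a7 averaged 28.6 CPM there and 444 CPM in Maltodextrin, and the part of this in the fall of Plagl1 was not tested. In tissue punches, fewer cells of a type and less RNA per cell cannot be told apart.

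**Figure D2:**
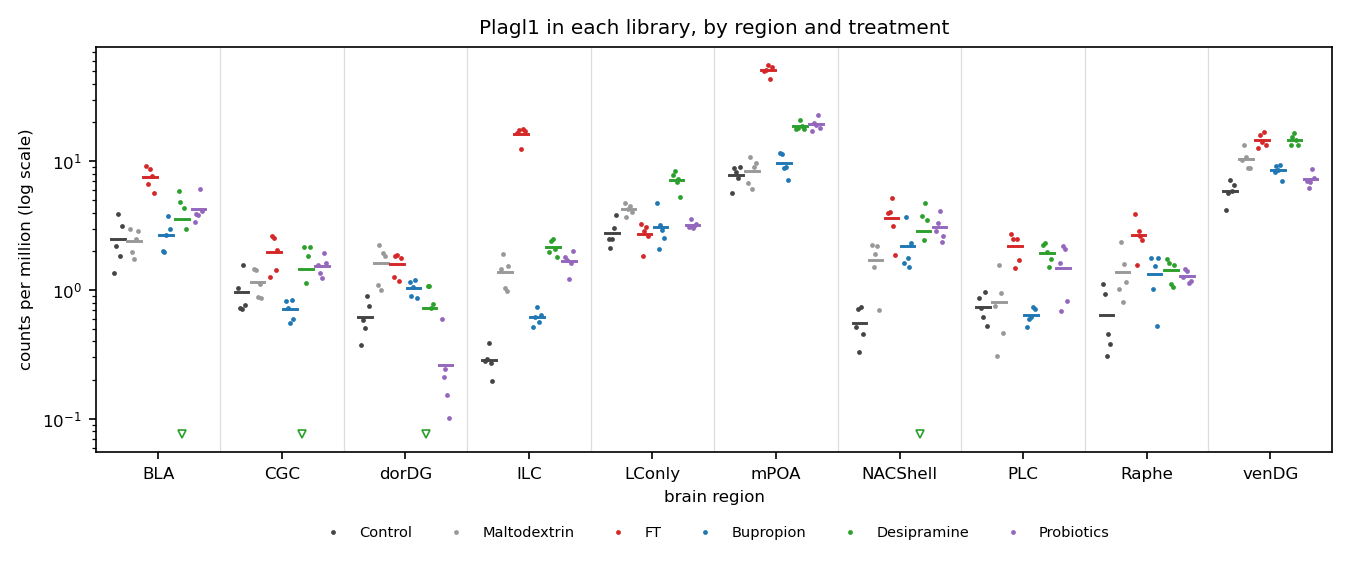
Plagl1 in each of the 300 libraries, in CPM on a log scale, by brain region and treatment (colours); points are libraries, bars are means of 5, and open triangles at the bottom mark the 4 Desipramine libraries with 0 counts. The 5 FT libraries of mPOA, between 43.2 and 55.5 CPM, stand above every other group, and the FT libraries labelled ILC, at 12.4 to 17.9 CPM, stand above all others of that label.

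Hypothalamic peptide genes moved in the same libraries. Pomc, a peptide precursor of hypothalamic neurons, averaged 375 CPM in mPOA of FT and 3.34 CPM in Control, and the summed level of the 15 hypothalamic neuron markers ran from 2125 to 4835 CPM there against 1379 to 1771 CPM. In Desipramine that sum was 1154 to 1920 CPM in mPOA, overlapping with Control, and Pomc averaged 2.37 CPM. The part of these markers in the Plagl1 levels was not tested.

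Igf2, the growth factor of the set, was higher in some regions and lower in others. Raphe of FT, which chose it, held 39.6, 47.8, 45.6, 42.1 and 40.1 CPM against 10.6, 9.45, 9.35, 10.9 and 11.4 CPM in Control. The other treatments stood high in Raphe too, though the drug groups are set against the same Control libraries that took part in the choice. Desipramine held 33.3, 37.6, 35.1, 33.9 and 32.2 CPM (log2 change 1.45, SE 0.079, edgeR adjusted p = 3.6e-16, n = 5), and Bupropion held 28.9, 26.1, 28.9, 26.1 and 27.1 CPM (1.23, SE 0.079, adjusted p = 1.03e-13). Probiotics libraries of 29.4 to 36.5 CPM stood above Maltodextrin libraries of 7.47 to 12.5 CPM (1.56, SE 0.082, adjusted p = 2.17e-16). The 2 control groups, in contrast, overlapped in Raphe, with a difference of -0.06 (SE 0.088, adjusted p = 0.619). The summed level of the 12 meningeal and fibroblast markers in Raphe was 87.4 to 93.7 CPM in Control, 89.1 to 105 CPM in Maltodextrin, 96.4 to 118 CPM in Probiotics, 103 to 120 CPM in Bupropion, 128 to 157 CPM in Desipramine and 123 to 172 CPM in FT, so the sum was also above Control in the 4 treated groups. Against Maltodextrin, the reference of Probiotics, the Probiotics sums overlapped. The part of these markers in the Igf2 levels was not tested.

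The largest Igf2 difference in FT lay in BLA, where libraries of 109, 128, 115, 127 and 116 CPM stood above Control at 7.63, 11.4, 8.91, 10.5 and 11.2 CPM (log2 difference 3.61, not tested). In dorDG of FT the libraries held 58.2 to 73.4 CPM against 10.7 to 14.4 CPM. These are the groups in which the 12 choroid plexus markers summed to 7558 to 9676 CPM (BLA) and 5028 to 6835 CPM (dorDG), against 170 to 208 CPM and 110 to 135 CPM in Control. Of these markers Otx2 was at 0 in BLA of Control and none was at 0 in BLA of FT. In Raphe the same sum was 558 to 725 CPM in FT and 550 to 577 CPM in Control. In LConly, Igf2 was higher than Control (12.4 to 15.4 CPM) in Bupropion (33.7 to 38.9 CPM, log2 change 1.42) and Desipramine (38.1 to 40.6 CPM, 1.25), where choroid plexus sums overlapped with Control, and in Maltodextrin (42.1 to 48.7 CPM, 1.57), where that sum was 6629 to 7488 CPM against 413 to 449 CPM in Control. The adjusted p of these 3 changes was at most 2.69e-15. The part of choroid plexus tissue in these values was not tested.

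Igf2 fell elsewhere. In mPOA of Desipramine, libraries of 62.8, 65, 61.7, 58.7 and 67.7 CPM stood below Control at 92.4, 97.2, 102, 95.1 and 94.3 CPM, and the gene fell by 0.85 (SE 0.068, adjusted p = 2.9e-12), while the meningeal sum was 235 to 260 CPM against 310 to 376 CPM. Over all regions Igf2 fell by 0.19 in Bupropion, 0.22 in Desipramine and 0.33 in Maltodextrin against Control (adjusted p at most 0.0001), and these 3 signs turned to 0.28, 0.29 and 0.18 without ILC and LConly. With library totals the Desipramine value was 0.019 (adjusted p = 0.666). Among the libraries left out are those of Control labelled ILC, at 142 to 178 CPM against 27.8 to 35.9 CPM in Maltodextrin. Probiotics against Maltodextrin gave 0.11 (adjusted p = 0.0166) over all regions and -0.075 without ILC and LConly.

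Cdkn1c, an inhibitor of cyclin-dependent kinases, rose in 8 of 10 regions of FT, by 0.97 over all regions (SE 0.07, edgeR adjusted p = 8.35e-13), from 4.82 ± 0.291 to 10.7 ± 1.7 CPM, and by 1.05 (adjusted p = 1.72e-13) without ILC and LConly. In BLA its libraries held 22.2, 18.4, 16.8, 15.8 and 16.2 CPM in FT and 2.09, 2.06, 2.56, 2.12 and 2.23 CPM in Control, a rise of 3 on the log2 scale (SE 0.18, adjusted p = 5.87e-15). In Raphe they held 16, 14, 9.37, 14.6 and 11.3 CPM against 2.59, 2.86, 3.48, 4.4 and 2.23 CPM, a rise of 1.71 (SE 0.16, adjusted p = 3.96e-11). Neither pair of groups overlapped. The marker sums given for Igf2 moved in the same libraries: that of choroid plexus was 7558 to 9676 CPM against 170 to 208 CPM in BLA, and that of meninges and fibroblasts 123 to 172 CPM against 87.4 to 93.7 CPM in Raphe, and their part in the Cdkn1c levels was not tested. In Raphe, Bupropion (5.89 to 8.2 CPM, 1.1) and Desipramine (6 to 10.2 CPM, 1.06) were also above Control without overlap, as were Probiotics (5.97 to 8.55 CPM) above Maltodextrin (3.06 to 3.88 CPM) at 0.91 (adjusted p = 4.63e-05). Over all regions Cdkn1c rose by 0.58 in Bupropion (adjusted p = 3.86e-08), 0.24 in Desipramine (adjusted p = 0.00366) and 0.26 in Maltodextrin (adjusted p = 0.00311), and Probiotics against Maltodextrin did not pass (0.12, adjusted p = 0.156). Against Control and Maltodextrin pooled the Desipramine value was 0.11 (adjusted p = 0.116).

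Across the 60 group means, Cdkn1c had the highest r with Igf2 among the 11252 genes searched, and that rank depended on the regions. Pearson's r was 0.84 on log2(CPM + 0.05), and 0.81 after each region was centred on its mean. Over the 30 groups of Raphe, PLC, NACShell, mPOA and CGC it was 0.78, below those of Igf2 with Islr (0.89), Aebp1 (0.89) and Gstm2 (0.86), and below that of Cdkn1c with Dap (0.84). Igf2 had an r of 0.75 with Col1a1, a collagen gene of the meninges, and Cdkn1c one of 0.54. These are descriptions over groups that share regions and libraries.

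**Figure D3:**
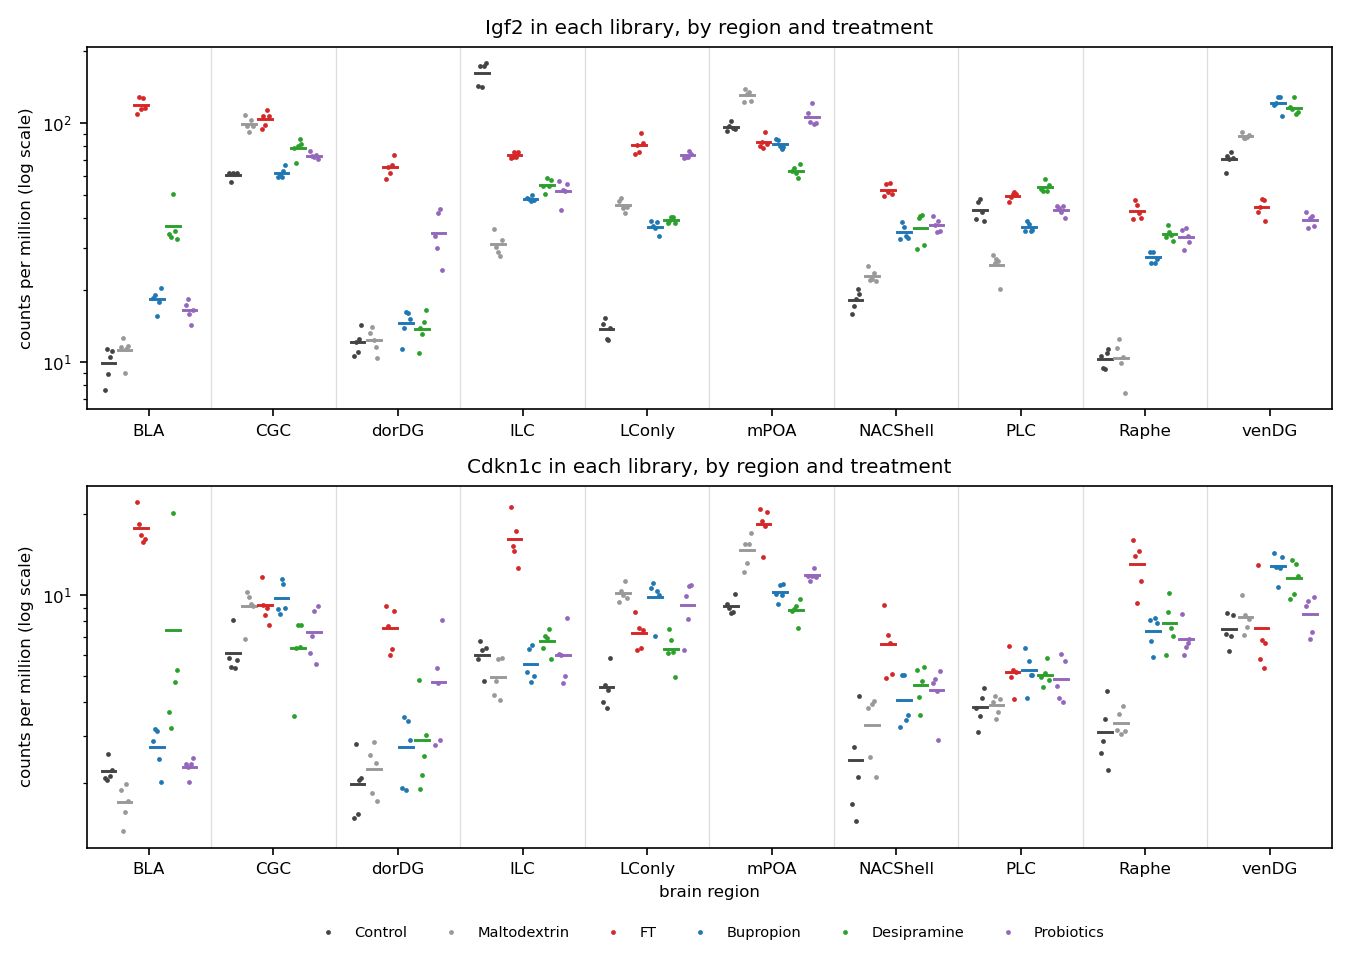
Igf2 (top) and Cdkn1c (bottom) in each library, in CPM on log scales, by brain region and treatment (colours); points are libraries and bars are means of 5. In Raphe the Control and Maltodextrin libraries of both genes lie below those of the other 4 treatments, and in BLA the FT libraries stand highest for Igf2, at 109 to 128 CPM.

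Plagl1 ran less closely with these genes. Its r was 0.41 with Igf2 (0.20 after centring within regions) and 0.59 with Cdkn1c (0.48), while with Grb10 it was 0.44 and 0.74 and with Peg3 0.52 and 0.66. In mPOA of FT, where Plagl1 was highest, Igf2 was at -0.34 against Control, and in Raphe of Probiotics, where Igf2 rose by 1.56, Plagl1 was at -0.25 (adjusted p = 0.567). With Dlk1 the centred r was 0.61. These values include the FT libraries labelled ILC and LConly, in which Plagl1, Dlk1 and Grb10 were all above Control (ILC) or all had negative log2 differences from it (LConly). Over Raphe, PLC, NACShell, mPOA and CGC, which leave those labels out, the centred r of Plagl1 was 0.71 with Grb10, 0.62 with Cdkn1c, 0.58 with Peg3, 0.49 with Igf2 and 0.47 with Dlk1. The order of the last 3 and of Cdkn1c therefore depended on the regions, and all are descriptions without a test.

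**Figure D4:**
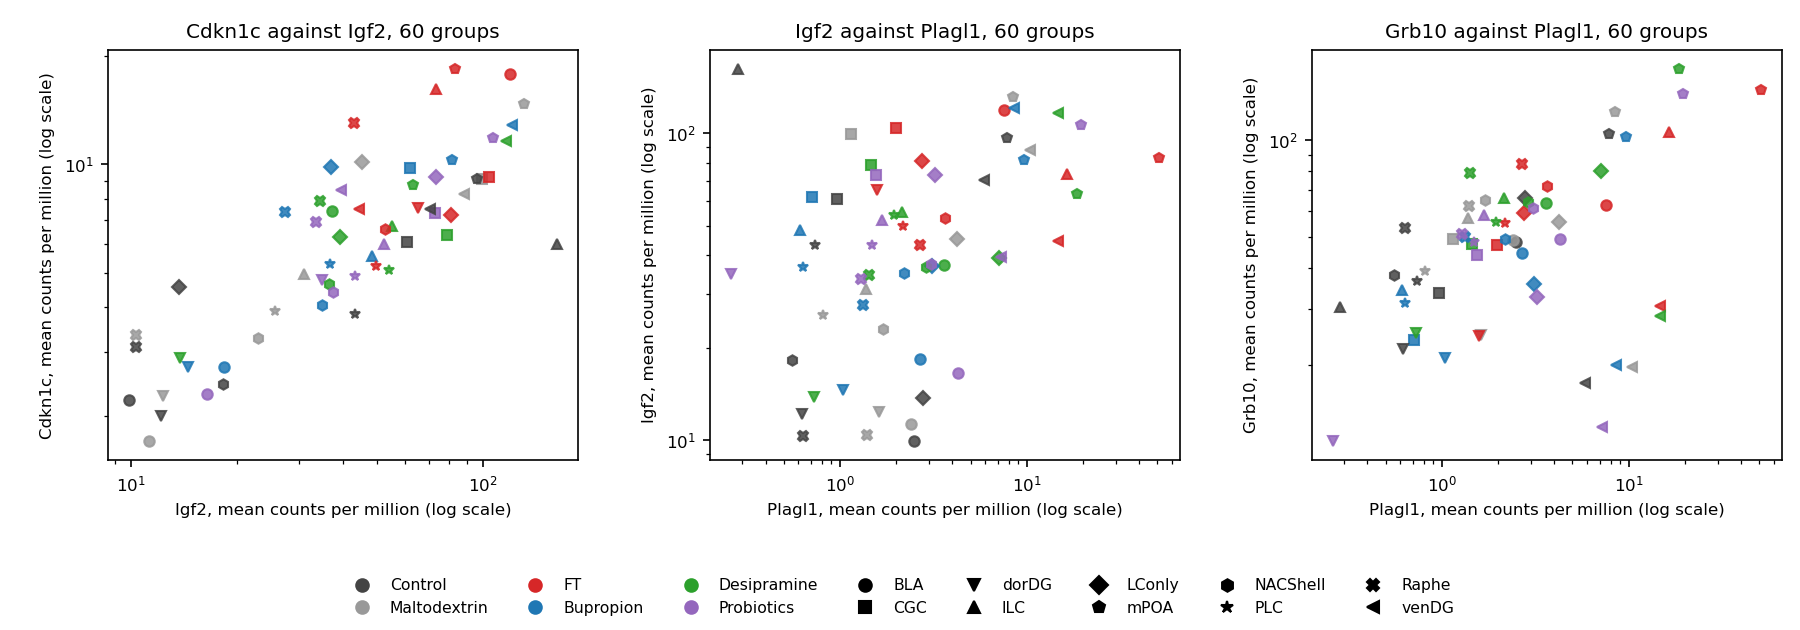
Mean CPM of the 60 groups, on log scales: Cdkn1c against Igf2 (left), Igf2 against Plagl1 (middle) and Grb10 against Plagl1 (right), with treatments as colours and regions as symbols. The left panel forms the tightest band (r = 0.84), and the middle panel is loose (r = 0.41).

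Dlk1 and Meg3 lie in the same imprinted cluster, Dlk1 as a transmembrane protein related to Notch ligands and Meg3 as a long noncoding RNA expressed from the other parent's allele. Dlk1 rose in FT by 0.66 over all regions (SE 0.068, edgeR adjusted p = 9.71e-10), in Bupropion by 0.74 (SE 0.067, adjusted p = 2.03e-10) and in Probiotics against Maltodextrin by 0.69 (SE 0.069, adjusted p = 9.28e-10), and fell in Maltodextrin by 0.39 (SE 0.069, adjusted p = 3.69e-05). In Desipramine it did not pass (-0.076, adjusted p = 0.326), and with library totals it was 0.17 (adjusted p = 0.0112). In NACShell, Control libraries held 5.95, 4.76, 5, 3.81 and 3.09 CPM and Bupropion libraries 19.9, 25.6, 19.8, 21.6 and 21.6 CPM, a rise of 2.19 (SE 0.14, adjusted p = 6.44e-15). FT (12.1 to 18.8 CPM, 1.67) stood above Control there too, and Probiotics (14.2 to 20.4 CPM) stood above Maltodextrin (3.68 to 5.84 CPM) by 1.9. Desipramine libraries of NACShell, at 11.4 to 21 CPM, were also above Control without overlap, the highest being a library of 571357 counts. By region, Dlk1 was called higher in 4 regions of Desipramine and lower in 1. The Control and Maltodextrin libraries of NACShell overlapped. In LConly, Bupropion held 32 to 40.4 CPM against 9.49 to 12.9 CPM, a rise of 1.83 (adjusted p = 6.04e-16). In mPOA, the region of its highest level, Dlk1 fell in Maltodextrin from 75.7, 62.9, 72.6, 73.5 and 74.2 CPM to 39.1, 35.8, 40.4, 31.9 and 35.4 CPM, by 1.08 (SE 0.1, adjusted p = 1.54e-09). The FT libraries labelled ILC held 44.8 to 62.2 CPM of Dlk1 against 0.145 to 0.475 CPM in Control, and those labelled LConly 1.15 to 2.39 CPM against 9.49 to 12.9 CPM, in the libraries whose markers go against their labels. Without these 2 labels the FT rise was 0.35 (adjusted p = 0.000203).

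Meg3 differed in direction between treatments and between regions. In NACShell, Control libraries held 167, 202, 214, 192 and 214 CPM and Maltodextrin libraries 640, 677, 748, 593 and 821 CPM, a rise of 1.63 (SE 0.094, edgeR adjusted p = 1.58e-15). Probiotics, on the same carrier, held 282 to 315 CPM, and against Maltodextrin the gene fell by 1.23 (adjusted p = 4.17e-13). In dorDG, Probiotics held 74.2 to 90.8 CPM and Maltodextrin 335 to 403 CPM. Those Probiotics libraries also differ in Slc17a7, as given for Plagl1, and the part of this in the Meg3 levels was not tested. In ILC the order was the other way, with 581 to 621 CPM in Probiotics and 168 to 206 CPM in Maltodextrin. In mPOA, Bupropion libraries of 156, 173, 151, 147 and 153 CPM stood below Control at 329, 410, 411, 361 and 409 CPM, and the gene fell by 1.26 (SE 0.11, adjusted p = 6.09e-11). In CGC (227 to 241 CPM against 523 to 585 CPM) it fell by 1.14. Over all regions Meg3 fell by 0.56 in Bupropion (SE 0.069, adjusted p = 6.79e-08), 0.20 in Desipramine (adjusted p = 0.0113) and 0.39 in Probiotics against Maltodextrin (adjusted p = 2.27e-05), and rose by 0.20 in Maltodextrin (adjusted p = 0.0191). With library totals the Desipramine value was 0.0015 (adjusted p = 0.984), and without ILC and LConly the Maltodextrin value was 0.07 (adjusted p = 0.385). In FT it was at 0.13 (adjusted p = 0.117), at 0.23 (adjusted p = 6.87e-08) without FT replicate 1, at 0.30 (adjusted p = 6.63e-05) with library totals, and at -0.21 (adjusted p = 0.0108) without ILC and LConly. Its FT values ran from -1.02 in CGC to 1.36 in the libraries labelled LConly and 2.97 in those labelled ILC, whose markers go against both labels. Among the patterns nearest to Meg3 in 11252 genes were those of Leng8 (r = 0.89) and Rsrp1 (0.87).

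Grb10, an adaptor that dampens insulin and IGF receptor signalling, and Peg3, a zinc finger protein, had like patterns. Both rose in Desipramine: Grb10 in 8 of 10 regions and by 0.39 over all regions (SE 0.036, edgeR adjusted p = 1.73e-10), and Peg3 in 9 of 10 regions, all but LConly, and by 0.38 (SE 0.035, adjusted p = 1.64e-10). In mPOA, Peg3 libraries went from 1464, 1524, 1699, 1654 and 1430 CPM in Control to 2672, 2912, 2713, 2739 and 2472 CPM in Desipramine (0.56, SE 0.059, adjusted p = 7.23e-10). Grb10 libraries there went from 95.3, 98.4, 114, 108 and 104 CPM to 166, 179, 169, 172 and 142 CPM (0.44, SE 0.06, adjusted p = 1.58e-07). Neither gene's groups overlapped. In Bupropion both fell in LConly, Peg3 from 1212 to 1424 CPM down to 698 to 875 CPM (by 0.79, adjusted p = 3.63e-12) and Grb10 from 63.5 to 68.1 CPM down to 31.5 to 41.7 CPM (by 0.89, adjusted p = 1.62e-12), and over all regions they fell by 0.18 and 0.15 (adjusted p = 6.81e-05 and 0.00114). Those 2 calls were lost with only Raphe, PLC, NACShell, mPOA and CGC counted. Grb10 rose in FT by 0.40 over all regions (SE 0.037, adjusted p = 1.19e-10) and in 8 of 10 regions. It fell only in the libraries labelled LConly (-0.47 on the log2 scale). Peg3 rose in FT by 0.15 over all regions (SE 0.035, adjusted p = 0.000496). By region Peg3 ran from -1.69 to 1.88, with 5 of 10 regions called higher and 1 lower. These FT values include the libraries labelled ILC and LConly, whose markers go against their labels. Over the 60 group means the r of Grb10 with Peg3 was 0.85, and 0.78 after centring within regions. Scn9a, a sodium channel gene, was nearest to Peg3 (r = 0.94) and second nearest to Grb10 (0.91), behind Impact, itself an imprinted gene (0.92).

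The changes of Ndn and Mest over all regions were small. Ndn, which encodes necdin, a growth suppressor of neurons after division, fell by 0.33 in Desipramine (SE 0.039, edgeR adjusted p = 1.87e-08), 0.26 in Maltodextrin (SE 0.039, adjusted p = 3.22e-06) and 0.19 in FT (SE 0.039, adjusted p = 0.000128) over all regions. The level in FT was 692 ± 14.1 CPM against 693 ± 17.6 CPM in Control (SD, n = 5), and the FT fall depends on the scaling: with library totals it was 0.023 (adjusted p = 0.454), and against Control and Maltodextrin pooled -0.055 (adjusted p = 0.163). In mPOA, Desipramine libraries of 1357, 1385, 1358, 1420 and 1478 CPM stood below Control at 2072, 2053, 1648, 1878 and 1906 CPM, and the gene fell by 0.70 (SE 0.09, adjusted p = 4.88e-08). In dorDG of FT it rose from 278 to 299 CPM up to 407 to 428 CPM (0.64, SE 0.061, adjusted p = 1.82e-09). The choroid plexus sums given for Igf2 were also far above Control in those FT libraries, and their part in the Ndn levels was not tested. Mest, which encodes an enzyme of the hydrolase fold, rose by 0.29 in Bupropion (SE 0.06, adjusted p = 0.000128) and by 0.29 in Desipramine (SE 0.06, adjusted p = 0.000104), with 7 and 8 of 10 regions called higher and none lower. In venDG, Bupropion libraries of 38.6, 33.7, 36, 36.2 and 36.2 CPM stood above Control at 20.9, 21, 25, 23.8 and 17.9 CPM (0.65, SE 0.092, adjusted p = 8.9e-07). In FT, Mest did not pass over all regions (-0.12), but did without FT replicate 1 (-0.16, adjusted p = 0.0144). It fell in mPOA by 0.46 (adjusted p = 2.33e-05), although libraries of 74.3 to 118 CPM overlapped with Control at 107 to 122 CPM.

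**Figure D5:**
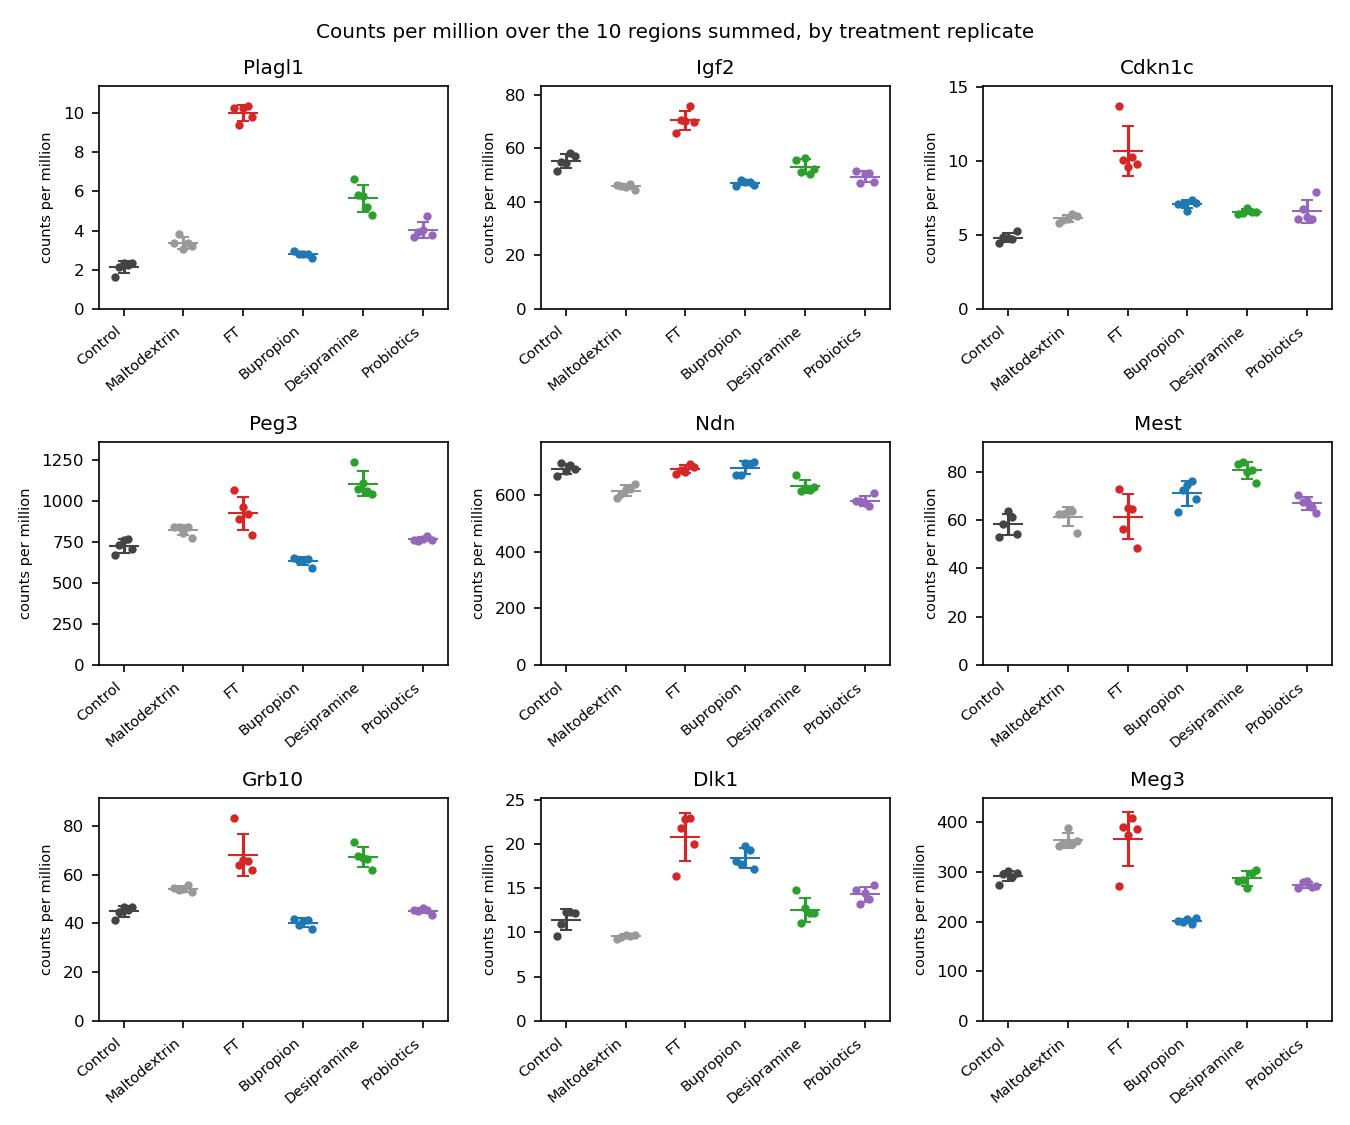
CPM of each gene over the 10 regions summed, by treatment, with axes from 0; points are the 5 treatment replicates, lines are means and bars are SD. Plagl1 reaches 10 CPM in FT and 5.64 CPM in Desipramine against 2.14 CPM in Control, and FT replicate 1 stands apart for Cdkn1c, Grb10, Dlk1 and Meg3.

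Other imprinted genes were called in both directions, in a balance that depended on the scaling, and are read against the share of all genes called (61.9% in FT, 58.1% in Bupropion, 70.6% in Desipramine, 55.9% in Probiotics and 48.6% in Maltodextrin). Of 46 listed, 34 were tested; 10 rose and 11 fell in FT, 11 rose and 14 fell in Bupropion, 13 rose and 9 fell in Desipramine and in Probiotics, and 10 rose and 11 fell in Maltodextrin, with medians between -0.05 and 0.11 against -0.12 to 0.07 for all genes. With library totals 17 rose and 3 fell in FT, 19 and 5 in Desipramine, and 15 and 7 in Maltodextrin. The genes named next kept their sign with that scaling. Neither this list nor those of the next paragraph were fitted without ILC and LConly, so all include the libraries of doubtful label. Dio3, a thyroid hormone inactivating enzyme in the cluster of Dlk1 and Meg3, rose in the 3 drug groups, by 1.30 in FT, 0.64 in Bupropion and 0.85 in Desipramine. Its level was low, at a mean log2 CPM of 0.36. Ube3a, a ubiquitin ligase, rose in FT by 0.50, while Snrpn and Snurf, which share a transcript, fell by 0.77 and 0.38. Snrpn also had a low level, at a mean log2 CPM of 0.087 against 7.17 for Snurf. Nnat, a small membrane protein of neurons, rose in Bupropion by 0.44 and fell in Desipramine by 0.72 and in Maltodextrin by 0.59. Kcnk9, a potassium channel, fell in Maltodextrin by 0.51 and rose in Probiotics against it by 1.16.

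The IGF axis was mixed as well, and the same shares of all genes are its background (61.9% in FT, 58.1% in Bupropion, 70.6% in Desipramine, 55.9% in Probiotics and 48.6% in Maltodextrin). Of 20 genes 17 were tested; 7 rose and 3 fell in FT, 5 and 2 in Bupropion, 3 and 8 in Desipramine, 7 and 5 in Probiotics, and 3 and 4 in Maltodextrin. With library totals 8 rose and 4 fell in Desipramine, and 5 and 1 in Maltodextrin. Igfbp5, a binding protein of the ligand, rose by 0.83 in FT and 0.41 in Bupropion, and Igf1r, the receptor, rose by 0.34 in Bupropion and 0.50 in Probiotics. Igfbp6 fell by 0.95 in Desipramine, where Irs2, a receptor substrate, rose by 0.65. Of 12 symbols listed as relatives or described targets of Plagl1, 11 were tested: 8 rose and 1 fell in FT, 4 and 2 in Bupropion, 7 and 2 in Desipramine, 5 and 1 in Probiotics, and 4 and 3 in Maltodextrin, where 25.5% of all genes rose and 36.4% fell in FT, 22.2% and 35.9% in Bupropion, 25.9% and 44.7% in Desipramine, 33.8% and 22.1% in Probiotics, and 17.5% and 31% in Maltodextrin. Its medians were 0.28 in FT and 0.21 in Desipramine, against -0.06 and -0.12 for all genes. With library totals 7 rose and 1 fell in Maltodextrin. Among them the cell cycle inhibitors Cdkn1a and Cdkn1b rose in FT by 0.65 and 0.61, Cdkn1b rose in Desipramine by 0.58, and Plag1, the related zinc finger gene, rose in Desipramine by 0.49 and fell in Bupropion by 0.56.

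The genes whose patterns over the 60 groups were most like Plagl1 were Wdr63 (r = 0.83), Ccdc40 (0.82), Spag8 (0.80), Spint2 (0.79) and Cfap126 (0.79). Of these, Wdr63, Ccdc40 and Cfap126 encode parts of motile cilia. Centred within regions, the values of these genes fell to 0.51 to 0.70. Uncentred over Raphe, PLC, NACShell, mPOA and CGC they were 0.87 to 0.92. Next to Igf2, after Cdkn1c, came Slc12a4, Aebp1, Gstm2 and Islr (0.77 to 0.79), and next to Cdkn1c came Igfbp2 (0.83) and Dap (0.80). Dlk1 ran with Gpr165 (0.93), Ngfr (0.92) and Slc6a9 (0.92), and Ndn with Ergic3 (0.89), Cidea (0.87) and Tmie (0.86). After centring within regions the 3 values for Ndn were 0.23 to 0.41, so that likeness lay between regions, while those of Dlk1 stayed at 0.75 to 0.85. Mest was most like Grin3a (0.90), Kcna6 (0.89) and Asic1 (0.88), which encode ion channels, and these values were 0.51 to 0.69 after centring and 0.46 to 0.74 over Raphe, PLC, NACShell, mPOA and CGC.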

How the data were processed

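Each library was deposited by the authors as a column of read counts per gene symbol, and all 300 columns were matched to samples by their labels, with 0 columns left over. Per the submitters' processing notes FastQC, STAR and HTSeq were used with the rn6 genome, with versions and options not given in the sources used here. Neither is the strand setting of the counting, so reads of a gene and of a transcript overlapping it on the other strand cannot be told apart. The 9 genes and the lists were chosen with earlier results of these data known.

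CPM (counts per 1000000) were computed from raw library totals. Log2 changes were fitted with edgeR 4.0.16 and limma 3.58.1 in R 4.3.3 (TMM scaling, filterByExpr, quasi-likelihood F-test, Benjamini-Hochberg over all genes tested), so a ratio of CPM and a fitted change can differ. Each region was fitted over its 30 libraries. The fit over all regions used 30 sums over 10 regions with the same treatment and replicate number, with a gene-wise offset from the scaled library sizes and the share of the gene in each region, which evens out depth between regions. Differences between regions were tested with 9 interaction terms over 100 libraries, in a fit with terms for treatment replicate and region. The scripts were tested on simulated data.

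Floors for libraries with 0 counts are 3 counts and cover counting error only. Likeness of patterns is Pearson's r over the 60 group means of log2(CPM + 0.05), among genes with a mean log2 CPM over 0. The text names all 9 members, some of the 2 highest and 2 lowest called genes of each list in a comparison, and some of the genes nearest in pattern. Alternatives were RLE size factors, DESeq2 1.42.0, no filter on low counts, a replicate block, fits of only the compared groups, pooled controls, fewer regions, libraries left out by depth, and each replicate left out. Scaling by library totals, and counts of pairs over fewer regions, were added after seeing the data.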

Additional observations from a re-analysis of the deposited data

Results flagged for a closer look

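Of 540 groups of 5 libraries (9 genes in 60 groups), 34 had 1 library far from the other 4, by Dixon's gap test on CPM; chance flags about 1 in 20 groups. By gene these were 3 groups for Plagl1, 3 for Igf2, 4 for Cdkn1c, 3 for Peg3, 6 for Ndn, 3 for Mest, 5 for Grb10, 4 for Dlk1 and 3 for Meg3. FT replicate 1 gave 9 of the 34. Its Grb10 level was the highest in BLA (78.9 CPM, the nearest library at 61.8 CPM), CGC (58.4 against 46.6 CPM), LConly (72 against 58.3 CPM) and mPOA (183 against 135 CPM). Its Meg3 level was the lowest in BLA (275 against 435 CPM) and NACShell (303 against 448 CPM). Desipramine BLA replicate 3, the library with the fewest counts, stood highest for Igf2 (50.4 CPM, the nearest at 35.5 CPM) and Cdkn1c (20.2 against 5.27 CPM). Probiotics dorDG replicate 1 stood highest for Plagl1 (0.601 against 0.244 CPM).

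The treatment effect differed between regions, by the interaction test, for 7 genes in FT against Control (of 7 tested), where 92.4% of all genes passed. It differed for 9 genes in each other comparison. Of all genes, 90.3% passed in Bupropion, 87.1% in Desipramine, 82.1% in Probiotics against Maltodextrin and 89.6% in Maltodextrin against Control. These tests include the libraries labelled ILC and LConly.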

How the results depend on the processing

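Among log2 changes of single genes over all regions recomputed under the alternatives, 760 kept their side of the threshold. The called ones among them also kept their direction. Of the rest, 15 lost the call, 12 gained one and 12 changed sign. Changes called neither in the main fit nor under the alternative were not checked for sign. Without ILC and LConly the sign changed for Igf2 in Bupropion (0.28), Desipramine (0.29), Maltodextrin (0.18) and Probiotics (-0.075) and for Meg3 in FT (-0.21). With 5 regions alone (Raphe, PLC, NACShell, mPOA and CGC) it changed for Igf2 in Bupropion (0.13), Desipramine (0.079) and Maltodextrin (0.18). With library totals it changed for Ndn in FT (0.023) and, in Desipramine, for Igf2 (0.019), Dlk1 (-0.076, not called, to 0.17) and Meg3 (0.0015). The cause of these changes was not tested. The Probiotics call of Igf2 was lost without Probiotics replicate 1 (0.091, adjusted p = 0.0642). By region, pooling both control groups turned 10 called values: Plagl1 in Bupropion ILC (0.93 to -0.018), Igf2 in Bupropion CGC (0.15 to -0.098) and Desipramine CGC (0.17 to -0.082), Cdkn1c in FT LConly (0.35 to -0.16), Dlk1 in Desipramine LConly (0.28 to -0.035) and mPOA (-0.52 to 0.023), Grb10 in Bupropion NACShell (0.29 to -0.0025), Meg3 in FT Raphe (-0.29 to 0.0081), and Ndn in FT ILC (-0.22 to 0.19) and Desipramine NACShell (-0.14 to 0.11). Library totals turned 6: Meg3 in FT Raphe (-0.29 to 0.064), Ndn in Desipramine NACShell (-0.14 to 0.046) and Raphe (-0.19 to 0.089) and in FT ILC (-0.22 to 0.23) and LConly (-0.21 to 0.10), and Peg3 in Bupropion Raphe (-0.17 to 0.0037).

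Counts of called pairs of gene and region were lower with only the 5 regions, as fewer pairs were counted. They were 25 in FT, 24 in Bupropion, 36 in Desipramine, 29 in Probiotics and 28 in Maltodextrin. Without ILC and LConly the Maltodextrin count was 31. The share of all gene and region pairs called was not computed under these alternatives, so the counts here stand without a background. Leaving out each replicate kept the FT counts at 5 to 7 members and 45 to 51 pairs. Replicate numbers were not taken to pair libraries between treatments, because not every same-numbered pair had a correlation of deviations over 0.1. Within a treatment they were used to sum the regions and as a term in the interaction test. Medians over same-numbered pairs within a region were 0.037 to 0.073, against -0.020 to -0.0086 for pairs of other numbers. With deviations averaged over regions they were 0.11 in FT (3 of 5 pairs over 0.1), 0.22 in Bupropion (4 of 5), 0.0074 in Desipramine (2 of 5), 0.078 in Probiotics (2 of 5) and 0.16 in Maltodextrin (3 of 5). With the replicate block the pairs called were 51 of 69 in FT. Of 89 pairs each, 52 were called in Bupropion, 69 in Desipramine, 56 in Probiotics and 49 in Maltodextrin. Apart from FT, the counts against Control in this paragraph include Plagl1 and Igf2, whose Control levels took part in choosing the set. Depth limits Plagl1 and Dlk1, which had few counts in several regions.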
